A study of Homo sapiens with 3 samples.

Results

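The effect of the medulloblastoma-associated DDX3X mutant G325E on ribosome footprints was described gene by gene, by setting the G325E peak list against the wild-type DDX3X peak list. A peak here is a stretch of the genome covered by enough footprint reads to be called by the authors, and each row of a list is 1 peak. All rows of both lists were used, which gave 15680 peaks for G325E and 19920 for wild-type DDX3X, or 35600 of the 46819 peaks of the series. Each peak was given a host gene through the RefSeq transcript named in its annotation, or through the nearest gene name where the lists did not pair that transcript with a name. The peaks of both lists fell on 3527 host genes of 3580 in all, and the 1793 genes with at least 8 peaks in both lists together were compared. These genes held 83.6% of the G325E peaks and 77.1% of the wild-type DDX3X peaks.

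The study profiled ribosomes in HEK293T cells, a line derived from human embryonic kidney, 24 h after transient transfection with pCDNA3.1 plasmid carrying FLAG-tagged wild-type DDX3X, FLAG-tagged DDX3X G325E or no insert (vector). Cells still carried their own DDX3X, so both DDX3X groups held the introduced protein on top of it. Per the labels, cells received 2 µg/ml harringtonine for 90 s, which holds ribosomes at start codons, and 100 µg/ml cycloheximide, which stops elongation. The study's methods name cycloheximide alone. There was 1 library per group. No test between groups was therefore possible, differences between libraries and between conditions cannot be told apart, and intervals below cover counting error of peaks only, which are not independent molecules. The labels give a neuronal cell type, and of 20 neuronal marker genes checked only NEFL, NEFM, TUBB3 and UCHL1 carried peaks in these lists, whereas STMN2, SNAP25, MAP2, MAPT, SYN1, DCX and RBFOX3 carried none.

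The DEAD-box protein DDX3X uses ATP to unwind structured RNA. It binds translation initiation factors and is known for helping ribosomes to load on messages whose 5' leaders are long, structured or rich in G and C. It is also a component of stress granules, the cytoplasmic bodies in which untranslated messages gather. In ribosome profiling, the stretch of message protected by a ribosome is sequenced, so that footprints on coding exons mark elongating ribosomes and footprints in leaders mark initiating ribosomes or those on upstream open reading frames.

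Footprint-sized peaks from the genes that differed most between the lists are shown here, 5' to 3' on the strand of the message, as read from the GRCh37 (hg19) reference genome, with every G and C in capitals because GC content is taken up in the comparisons that follow. They are coding peaks of at most 30 nt. The first 5 come from the G325E list, on genes with more peaks in G325E:
ZIC2: tGCGGCaGCaGtGCatCaaGCaGGaG
NR2F2: CaGCCGaGtaCaGCtGCCtCaaGGCCata
TBX1: CtCGtCGGCCGGaGCCGCGCCGCCCG
POU3F3: GCGCaGGaGatCaCCaaCCtGGCCGaCaG
CDKN1C: CGaGCaGGGCGCGaaCCaGGGGCaGCGCGG

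The other 4 come from the wild-type DDX3X list, on genes with fewer peaks in G325E:
SF3B2: tGGCGCCtGGGCtGCCCaGGaGCttCaGG
EDC4: GtGaGaCCtGCaGCaCCCtGGCaGaaaG
SCO2: aCtaCGGCCGGaGCaGatCGGCtGaGC
TCOF1: CaGaGaCaGaGaaaGCtGGCaaGaCtGGGa

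The ZIC2 peak lay at chr13:100635058-100635083 on the plus strand, in exon 1 of 3, and 61.5% of its bases were G or C. The NR2F2 peak lay at chr15:96877788-96877816 (plus strand, exon 2 of 3) and was 58.6% GC. The TBX1 peak, at chr22:19754339-19754364 (plus strand) in the last of 9 exons, reached 88.5% GC, and the CDKN1C peak, at chr11:2906019-2906048 (minus strand, exon 2 of 4), reached 80%. The POU3F3 peak was at chr2:105473265-105473293 (plus strand) in a gene with 1 exon and was 65.5% GC. Among the wild-type DDX3X peaks, that of SF3B2 was at chr11:65819927-65819955 (plus strand, exon 1 of 22, 72.4% GC). The EDC4 peak was at chr16:67914866-67914893 (plus strand, exon 18 of 29, 60.7% GC). The SCO2 peak was at chr22:50962096-50962122 (minus strand, exon 2 of 2, 66.7% GC) and the TCOF1 peak at chr5:149748280-149748309 (plus strand, exon 5 of 26, 53.3% GC).

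The targeted gene was examined first. DDX3X carried 32 peaks in the wild-type DDX3X list, 9 in the G325E list and 0 in the vector list, where a count of 0 allows up to 3. Of these, 31 wild-type and all 9 G325E peaks lay in exons and none in the promoter-TSS or 5' UTR class. Both lists from cells given a DDX3X plasmid thus held DDX3X peaks and the vector list held none. Scaled to list totals, DDX3X had 16.1 peaks per 10000 list peaks with wild-type and 5.74 with G325E, which is 2.80-fold fewer in G325E (counting interval 1.31 to 6.67). The plasmid and the cells' own DDX3X messages cannot be told apart in these lists.

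Peak numbers were scaled to the list totals and compared for each gene. At a limit of 2-fold, 440 of the 1793 genes were higher in G325E (24.5%), 397 were lower (22.1%) and 956 lay between. The gene just inside the limit was 2.03-fold higher and the one just outside 2.00-fold higher, and in the other direction these were 2.01-fold and 1.97-fold lower. The counting interval of the fold lay wholly above 1 for 259 of the 440 and wholly below 1 for 297 of the 397. For the remaining calls counting error alone did not set the fold apart from 1. The 259 include all 168 genes with no wild-type peak, and the 297 all 243 with no G325E peak. These genes met the minimum for comparison through 1 list alone, which fixed both their call and an interval clear of 1. The interval could fall either way only for called genes with a peak in both lists, 272 with more and 154 with fewer. The split depended on the scale. Of all called genes, 52.6% were on the higher side with all rows as the total, but 73.2% when lists were scaled to their exon, 5' UTR and 3' UTR peaks, which moved the median log2 fold of all tested genes from 0.20 to 0.57 and gave 607 genes with more and 222 with fewer. Scaling by the median gene ratio gave 365 with more and 478 with fewer, so that 43.3% were on the higher side, at a median log2 fold of -0.14. The study reports its fewest mapped non-duplicate reads for G325E and its most for wild-type DDX3X, and the part of read depth in the peak numbers was not tested.

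**Figure D1:**
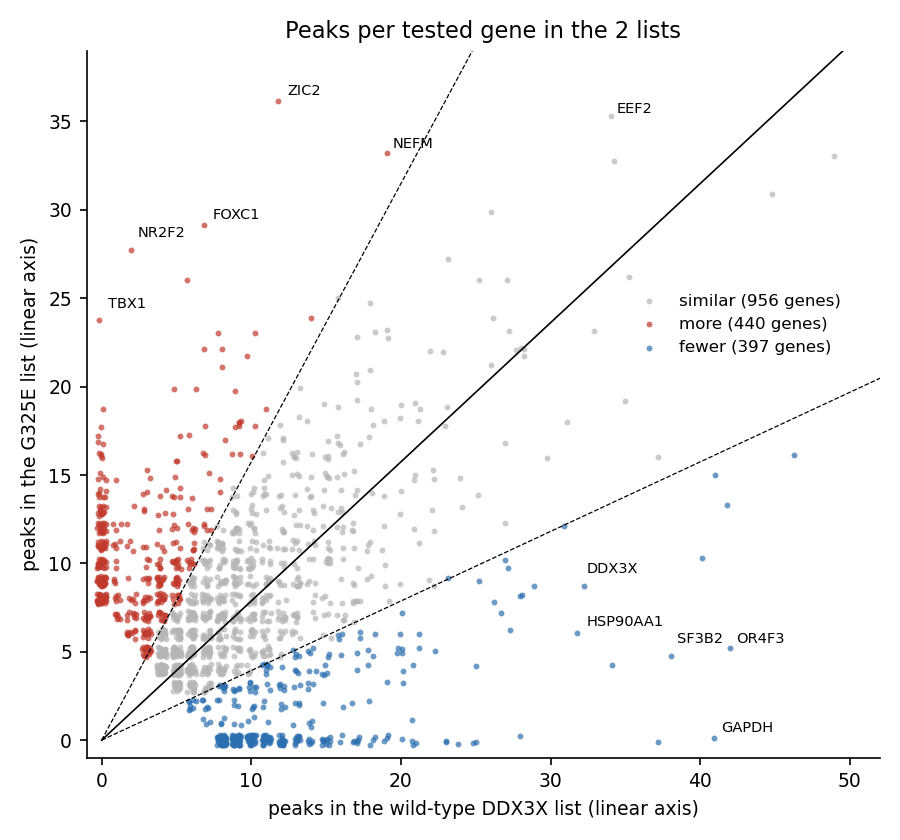
Peaks per gene in the wild-type DDX3X list (x axis) and the G325E list (y axis), both on linear axes with a small random shift so that genes do not hide each other. The solid line marks equal shares of the list totals and the dashed lines 2-fold differences. Red points are the 440 genes with more and blue points the 397 genes with fewer peaks in G325E, and columns of points stand at 0 peaks on both axes.

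Many of the called genes were present in 1 list and absent from the other. Every tested gene of this kind was called by construction. It met the minimum for comparison through 1 list alone, and its fold over the floor of 3 peaks then passed the limit. Of the genes with more peaks in G325E, 168 (38.2%) had no wild-type DDX3X peak, with a median of 10 and up to 24 G325E peaks, and 154 of these had no vector peak either. Of the genes with fewer peaks in G325E, 243 (61.2%) had no G325E peak at all, with a median of 10 and up to 41 wild-type peaks, and 102 of these also had no vector peak. For 227 of the 243 genes the G325E list had no peak at all from 10000 bp before to 10000 bp after the gene's peaks, and the same held in the wild-type list for 162 of the 168. Peaks were numbered along the genome in each list. The wild-type numbers ran to 23019 with 3099 numbers absent from the list used here and the vector numbers to 13171 with 1952 absent, whereas the G325E numbers ran to 15680 without a gap. Absent numbers fell within the stretch of 34 of the 168 genes with no wild-type peak. If every absent number beside a gene with more peaks is counted as a wild-type peak, 292 of the 440 genes stayed past the limit. The wild-type total was left at 19920 in this count, without the 3099 absent numbers. The folds with absent numbers counted, here and below, are therefore low estimates. Among the 1382 tested genes with a peak in both lists, 272 had more and 154 fewer.

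The genes with the largest excess of peaks in G325E were led by developmental transcription factors. ZIC2, a zinc finger factor of the early neural tube, had 12 wild-type and 36 G325E peaks and none with vector, that is 6.02 and 22.96 peaks per 10000 (3.81-fold more, counting interval 1.94 to 8.05). NR2F2, a nuclear receptor of vessel and organ development, had 8 vector, 2 wild-type and 28 G325E peaks, of which 10 G325E peaks were annotated to MIR1469 next to it, and its ratio was 17.8 with a wide interval of 4.48 to 154. TBX1, a T-box factor of pharyngeal development, had 24 G325E peaks against 0 with wild-type and 2 with vector and was at least 10.2-fold higher. FOXC1, a forkhead factor of eye and vessel development, had 0 vector, 7 wild-type and 29 G325E peaks (5.26-fold, 2.26 to 14.2). POU3F3, a POU factor of the developing brain, had 9, 6 and 26 peaks in the same order (5.51-fold, 2.22 to 16.4). In all 5 genes the G325E list as used here stood above both other lists, which lack numbered peaks that the G325E list does not. Wild-type numbers were absent beside ZIC2 (8), NR2F2 (9), FOXC1 (9) and POU3F3 (8), and with these counted as wild-type peaks the genes were 2.29-fold, 3.23-fold, 2.30-fold and 2.36-fold higher. Vector numbers were absent beside TBX1 (9) and POU3F3 (8).

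The other leading genes were of mixed function. CDKN1C, an inhibitor of cyclin-dependent kinases, carried 19 G325E peaks and none in either other list (at least 8.05-fold). HDAC4, a histone deacetylase, had 18 (at least 7.62-fold), EBF3, a helix-loop-helix factor, FSCN1, which bundles actin, and MIDN, midnolin, had 17 each (at least 7.20-fold), and EGLN1, the oxygen-sensing prolyl hydroxylase, had 16 (at least 6.78-fold). None of these 5 had a vector or wild-type peak, although 6 wild-type peak numbers were absent beside EBF3 and 1 beside FSCN1. NEFM, a neurofilament subunit, had 19 wild-type and 33 G325E peaks (2.21-fold, 1.22 to 4.11), with 16 in the vector list. CASZ1, a zinc finger factor, had 5, 8 and 23 peaks with vector, wild-type and G325E, MTSS1L, a membrane-bending protein, 0, 7 and 22, and QKI, an RNA-binding protein of glia and splicing, 7, 5 and 20. All 3 were between 3.65-fold and 5.08-fold higher in G325E than in wild-type. With absent wild-type numbers counted as peaks at the unchanged wild-type total, NEFM (2 absent), CASZ1 (7) and QKI (8) fell just below the limit. Their folds were 1.996, 1.95 and 1.95, and MTSS1L (4) was 2.54-fold higher.

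The G325E peaks on these genes were not all in coding exons. Of the 26 G325E peaks of POU3F3, 12 were in the promoter-TSS class and 11 in the exon class, whereas all 6 wild-type peaks were in the promoter-TSS class. FOXC1 had 14 promoter-TSS and 13 exon peaks in G325E against 2 and 5 in wild-type. EBF3 had 11 of its 17 peaks in the promoter-TSS class. HDAC4 had none in exons, with 7 in the promoter-TSS class, 6 in the 5' UTR and 5 in introns. In EGLN1, 9 peaks lay in the 5' UTR and 7 in exons.

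The genes with the largest deficit in G325E included genes of protein handling, RNA processing and metabolism. GAPDH, the glycolytic dehydrogenase, had 41 wild-type peaks and 0 in both other lists (at least 10.8-fold fewer than wild-type), of which 17 were annotated to transcripts of its neighbour NCAPD2, and its own 24 peaks gave at least 6.30-fold. SF3B2, a subunit of the U2 snRNP, went from 22 vector and 38 wild-type peaks to 5 (5.98-fold fewer, 2.35 to 19.5). The cytosolic chaperone HSP90AA1 had 16, 32 and 6 peaks (4.20-fold fewer, 1.73 to 12.3), its paralog HSP90AB1 16, 23 and 0 (at least 6.03-fold) and EEF1A1, which delivers tRNA to the ribosome, 15, 23 and 0 (at least 6.03-fold). SF3B2, HSP90AA1, HSP90AB1 and EEF1A1 were therefore low in G325E against both other lists as used here, whereas GAPDH was low only against wild-type. Absent vector and wild-type peak numbers were not counted for genes with fewer peaks. HSP90AA1, HSP90AB1 and EEF1A1 have near-identical copies in the genome, and reads could have been divided among these.

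TCOF1, the treacle protein of rRNA synthesis, had 17 vector, 40 wild-type and 10 G325E peaks (3.15-fold fewer, 1.55 to 7.06). EDC4, a scaffold of mRNA decapping, had 4, 34 and 4 (6.69-fold, 2.39 to 26.0), 6 of the wild-type and 2 of the G325E peaks being annotated to NUTF2. SCO2, a copper chaperone of cytochrome oxidase, had 13, 28 and 0 (at least 7.35-fold), 13 wild-type peaks being annotated to NCAPH2 and 1 to TYMP, so that its own 14 gave at least 3.67-fold. TIMM44, of the mitochondrial import motor, had 2, 24 and 0 (at least 6.30-fold), with 11 wild-type peaks annotated to ELAVL1. For some of the leading names the peaks belonged to another gene. All 46 wild-type and 16 G325E peaks under APOL1 were on transcripts of MYH9, a non-muscle myosin (2.26-fold fewer, 1.26 to 4.28). All 25 wild-type peaks under MUC6 were on AP2A2, an adaptor of clathrin coats, and all 25 under LOC100130776 on OS9, of endoplasmic reticulum quality control, and neither had a vector or G325E peak. Of 42 wild-type peaks under TCEB2, 33 were on SRRM2, a splicing matrix protein, and with these set aside TCEB2 was 0.18 higher in G325E on the log2 scale. The peaks under OR4F3, an olfactory receptor gene, were all intergenic peaks of chromosome 1, with 36 in the vector list, 42 with wild-type and 5 with G325E.

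**Figure D2:**
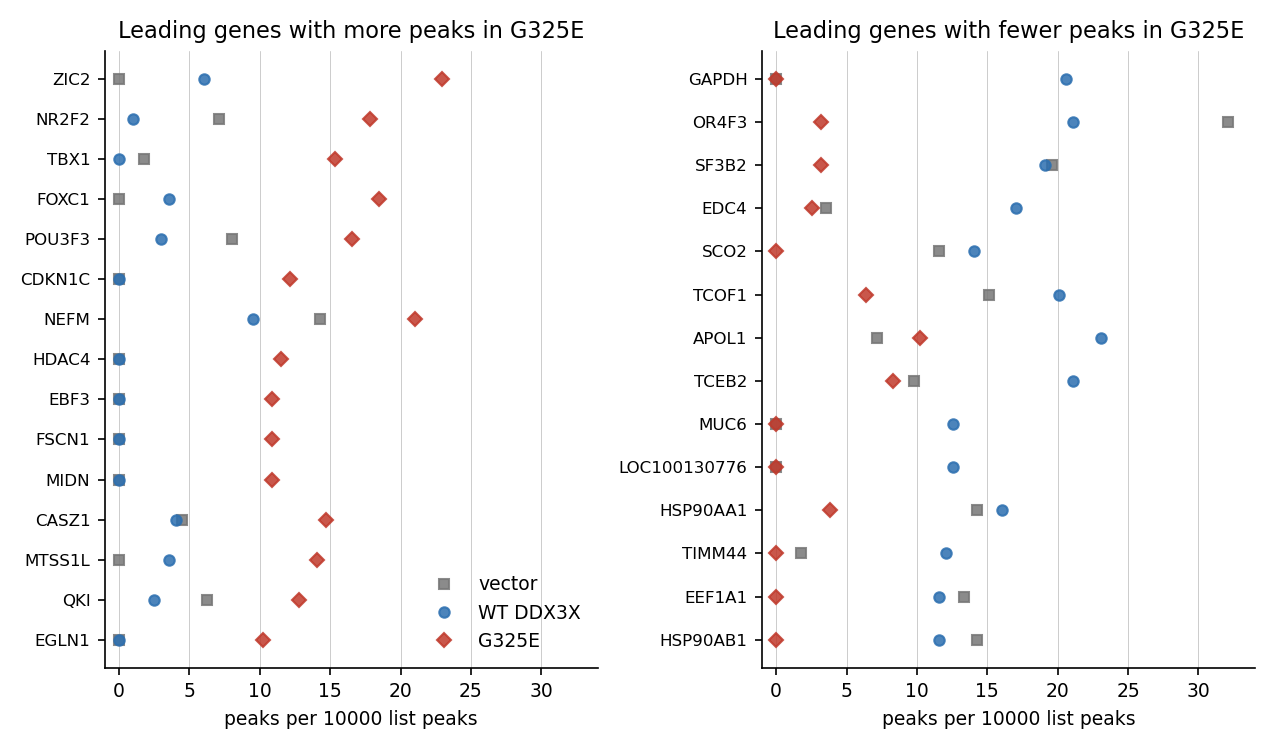
Peaks per 10000 list peaks (x axis) of the 15 genes with the largest gain (left) and 14 of the 15 with the largest loss (right) in G325E against wild-type DDX3X, with 1 symbol for each library. On the left every G325E value is above both other lists, and on the right 7 genes stand at 0 in G325E and 3 of these also at 0 with vector.

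The genes whose proteins the study assayed did not lead in either direction. SET, a histone chaperone and phosphatase inhibitor, had 10 vector, 18 wild-type and 14 G325E peaks, or 9.04 and 8.93 per 10000 in the latter 2 (ratio 0.99, 0.45 to 2.10). GNB2L1, which encodes the ribosomal scaffold RACK1, had 15, 14 and 11 peaks (ratio 1.00, 0.41 to 2.37), of which 4 wild-type and 2 G325E peaks were annotated to SNORD95 within it. HNRNPA2B1, an mRNA-packaging protein, had 11, 15 and 7 (0.59, 0.20 to 1.54) and HELLS, a chromatin remodeller, 0, 8 and 4 (0.64, 0.14 to 2.37). In all 4 the counting interval included 1. With hosts from the gene name column alone, HNRNPA2B1 stood at -3.24 on the log2 scale, and scaled by the median gene ratio HNRNPA2B1 stood at -1.10 and HELLS at the limit of 2-fold fewer. SET and GNB2L1 stood at 0.35 and 0.37 when scaled to exon and UTR peaks. PNN, a splicing factor at desmosomes, had 3, 7 and 0 peaks and was below the minimum for comparison.

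Among the gene lists, HOX, SOX and FOX transcription factors, which pattern the embryo, had the highest share of members with more peaks in G325E. Of 20 tested members, 15 were past the limit on the higher side and 0 on the lower, against 24.5% and 22.1% of all tested genes. Of these 15, the 7 with no wild-type peak met the minimum for comparison through the G325E list alone, so their call was fixed by it, and 8 had a wild-type peak. With absent wild-type numbers counted as peaks, 11 of the 15 stayed past the limit. Together the family held 58.8 peaks per 10000 with vector, 56.2 with wild-type (46.3 to 67.6) and 165 with G325E (146 to 186), which is 2.94-fold more than wild-type, and 2.31-fold and 3.79-fold more under the other scalings tried. The called members were between 2.38-fold and at least 5.93-fold higher. SOX4 had 8, 3 and 14 peaks with vector, wild-type and G325E (ratio 5.93, 1.65 to 32.2), FOXD1 9, 8 and 15 (2.38-fold, 0.95 to 6.49), FOXE1 0, 0 and 14 (at least 5.93-fold), FOXF2 4, 4 and 14 (4.45-fold) and HOXD13 0, 5 and 12 (3.05-fold). FOXD1, HOXD13 and SOX4 had 6, 5 and 2 absent wild-type numbers, and with these counted were 1.36-fold, 1.52-fold and 3.56-fold higher. SOX12 (5, 8 and 12) and HOXB9 (9, 13 and 9) were among the members within 2-fold. The coding sequences of this family were GC-rich, and 18 of its 20 tested members were among the 377 genes of highest coding GC, where 34.7% of all genes had more peaks. The part of GC content in this result was not tested.

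Early-response and intronless transcription factors had 6 members with more and 1 with fewer peaks of 13 tested, against 24.5% and 22.1% of all tested genes. Of the 6, the 3 with no wild-type peak had their call fixed by the minimum, and 4 stayed past the limit with absent wild-type numbers counted. With hosts from the RefSeq gene table, 4 of 11 had more and 1 fewer. The list held 86.5, 69.3 and 107 peaks per 10000 with vector, wild-type and G325E. CEBPB, a factor of inflammation and fat cell differentiation, had 10, 8 and 22 peaks (3.49-fold, 1.498 to 9.08), which became 1.75-fold with 8 absent wild-type numbers counted, whereas JUN (15, 23 and 22) and MAF were within 2-fold and MAFA (0, 10 and 0) was at least 2.62-fold lower. Of 13 members, 10 were among the 377 genes of highest coding GC. Among Wnt pathway and growth genes linked to DDX3X, 3 of 9 had more and 0 had fewer, against 24.5% and 22.1% of all tested genes. DVL1, the dishevelled adaptor, had 0, 0 and 13 peaks (at least 5.51-fold), the co-receptor LRP5 0, 3 and 13 (ratio 5.51, 1.51 to 30.1) and CTNNB1, which encodes beta-catenin, 4, 7 and 12 (2.18-fold, 0.79 to 6.53). CSNK1E, the casein kinase that DDX3X is known to stimulate, had 11, 13 and 11, and MYC 18, 27 and 12 (1.77-fold fewer, 0.87 to 3.84). With 8 absent wild-type numbers counted at LRP5 and 4 at CTNNB1, these were 1.501-fold and 1.39-fold higher, and DVL1 alone stayed past the limit. When lists were scaled by the median gene ratio, 2 of the 9 Wnt and growth genes had more and 2 fewer.

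Among lists with at least 7 tested members, nucleolar factors of ribosome production had the highest share with fewer peaks on the main scale, but not under the other scalings, where endoplasmic reticulum chaperones were higher. Of 15 tested, 8 were past the limit on the lower side and 2 on the higher, and the list held 132 peaks per 10000 with wild-type (117 to 149) and 59.3 with G325E (47.9 to 72.6), 2.23-fold fewer, with 108 in the vector list. NOLC1, the nucleolar phosphoprotein, had 15, 28 and 8 peaks (2.76-fold fewer, 1.22 to 6.99), BOP1 7, 18 and 0 (at least 4.72-fold), and its partner in the PeBoW complex, PES1, 11, 17 and 0 (at least 4.46-fold). SURF6 and NHP2 were the 2 with more, of which NHP2 alone stayed past the limit with absent wild-type numbers counted. Of 32 large-subunit proteins 5 had fewer and 4 more, and of 19 small-subunit proteins 3 had fewer and 0 more. Over all tested genes, 22.1% had fewer and 24.5% more. RPL7 (13, 15 and 0) was at least 3.94-fold lower and RPL38 (8, 7 and 15) 2.72-fold higher (1.04 to 7.89). With 1 absent wild-type number counted, RPL38 was 2.38-fold higher. Both ribosomal lists were 1.17-fold lower in G325E on the main scale and 1.10-fold higher when scaled to exon and UTR peaks. The elongation factor EEF2 had 41, 34 and 35 peaks, with an interval of the ratio from 0.79 to 2.16.

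Protein folding and degradation genes were described in 4 lists, against 24.5% with more and 22.1% with fewer of all tested genes. Of 8 tested endoplasmic reticulum chaperones 4 had fewer and 0 more, and the list stood at 90.9 peaks per 10000 with vector, 75.8 with wild-type (64.2 to 88.8) and 41.5 with G325E (32.0 to 52.8). HSPA5, the chaperone BiP, had 23, 28 and 8 peaks (2.76-fold fewer) and HYOU1 15, 19 and 0 (at least 4.99-fold). Of 14 proteasome subunits 7 had fewer and 2 more, from 73.8 to 42.7 peaks per 10000 with 68.6 in the vector list, and PSMC4, a base ATPase, had 1, 15 and 0 (at least 3.94-fold fewer). Of 16 cytosolic and mitochondrial heat shock chaperones 5 had fewer and 1 more, and 3 and 2 when scaled to exon and UTR peaks. TRAP1 had 5, 21 and 0 peaks (at least 5.51-fold fewer), whereas the stress-inducible HSPA1A (14, 15 and 16) and HSPA1B (19, 18 and 23), 2 near-identical genes, were within 2-fold. Of 3 tested TRiC chaperonin subunits, CCT5 and CCT6A had fewer. With hosts taken from the RefSeq gene table, 3 of 8 endoplasmic reticulum chaperones and 7 of 13 proteasome subunits had fewer. With these hosts 7 of 16 heat shock chaperones and 4 of 5 TRiC subunits had fewer, and 0 members of the 4 lists had more.

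Metabolic, histone and replication genes were set against the 24.5% with more and 22.1% with fewer of all tested genes. Of 7 glycolysis enzymes 3 had fewer (GAPDH, GPI and ALDOC) and 0 more. GPI had 16, 27 and 10 peaks (2.13-fold fewer, 1.00 to 4.92). All 15 wild-type peaks under ALDOC were on transcripts of another gene. ALDOA was level, with 20, 28 and 22. Of 8 nucleotide and one-carbon synthesis enzymes 4 had fewer and 0 more, among them IMPDH2 (7, 15 and 0, at least 3.94-fold, with 8 of the 15 wild-type peaks on its own transcripts). Of 16 histone chaperones and HMG proteins 7 had fewer and 1, HMGN1, had more (8, 9 and 18 peaks, 2.54-fold, 1.08 to 6.42), or 1.52-fold more with 6 absent wild-type numbers counted. NASP had 15, 20 and 5 (3.15-fold fewer, 1.15 to 10.7) and HMGB1 8, 15 and 0 (at least 3.94-fold). Of 44 histone genes 6 had more (5 with absent wild-type numbers counted) and 1 fewer. The histone list held 172 peaks per 10000 with wild-type and 223 with G325E, with 269 in the vector list. Of 13 MCM helicase and DNA replication genes 6 had fewer and 2, MCM5 and MCM7, had more. TOP2A, a topoisomerase, had 0, 16 and 0 peaks (at least 4.20-fold fewer).

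DDX3X's own family was divided, where 24.5% of all tested genes had more peaks and 22.1% fewer. Of 14 tested DEAD/DEAH-box helicases, 7 had fewer peaks (DDX3X, DDX21, DDX23, DDX24, DDX27, DDX39A and DHX8) and 3 had more (DDX31, DDX51 and DDX54), which became 4 and 4 when scaled to exon and UTR peaks. DDX21, a nucleolar helicase, had 2, 14 and 1 peaks with vector, wild-type and G325E (ratio of wild-type to G325E 11.0, 1.68 to 466), and DDX54 0, 1 and 11 (ratio 13.97, 2.03 to 602). With 2 absent wild-type numbers counted, DDX54 was 4.66-fold higher. Initiation factors were described in 3 lists, against the same shares of all tested genes. Of 7 eIF3 subunits 2 had fewer and 0 more, led by EIF3CL (14, 41 and 15 peaks, 2.15-fold fewer, 1.17 to 4.18), which is nearly identical to EIF3C and cannot be told apart from it, and the list held 47.7 peaks per 10000 with wild-type and 27.4 with G325E. Of 6 eIF4 group factors 2 had fewer (EIF4B and EIF4G2) and 1 more (EIF4G3, no longer past the limit with 6 absent wild-type numbers counted). Of 5 other initiation factors, EIF1, which guards start codon choice, had 0, 15 and 5 peaks and was the 1 with fewer.

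The lists that follow are set against 24.5% with more and 22.1% with fewer of all tested genes. The stress granule RNA-binding proteins had 1 more and 4 fewer of 12. Their summed level was 62.8 peaks per 10000 with wild-type and 65.7 with G325E, a direction that turned when scaled by the median gene ratio. It also turned with hosts taken from the RefSeq gene table, to a ratio of 0.94, with 1 more and 6 fewer of 14 tested. TIAL1, a nucleator of stress granules, had 10, 12 and 0 peaks (at least 3.15-fold fewer), ATXN2L 0, 0 and 9 (at least 3.81-fold more), and CAPRIN1 (8, 10 and 14), USP10 (2, 12 and 18) and YBX1 (11, 12 and 17) were between 1.78-fold and 1.91-fold higher. Of 17 hnRNP proteins 2 had more and 3 fewer, and of 19 actins, tubulins and actin binders 1 (0 with absent wild-type numbers counted) and 4. Of 29 ubiquitin and SUMO genes 5 (2 with these counted) had more and 6 fewer. Of 15 nuclear transport factors 3 (1 with these counted) had more and 5 fewer, and of 14 chromatin remodellers 4 (3 with these counted) and 3. In the spliceosome core 1 had more, U2AF1 (2, 1 and 8, ratio 10.2, 1.36 to 451), and 5 of 15 fewer, among them SNRPD3 (11, 14 and 1, ratio of wild-type to G325E 11.0, 1.68 to 466, with 9 of the 14 wild-type peaks on its own transcripts). With 1 absent wild-type number counted, U2AF1 was 5.08-fold higher. Of 18 solute carriers 6 had more (4 with absent wild-type numbers counted) and 1 fewer, although their summed level was 101 peaks per 10000 with wild-type and 108 with G325E and turned when scaled by the median gene ratio. The 4 neuronal markers had 24.1 peaks per 10000 with wild-type and 41.5 with G325E, with 27.6 in the vector list. NEFM was the only 1 past 2-fold, at 2.21-fold. It fell to 1.996-fold with absent wild-type numbers counted at the unchanged wild-type total.

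**Figure D3:**
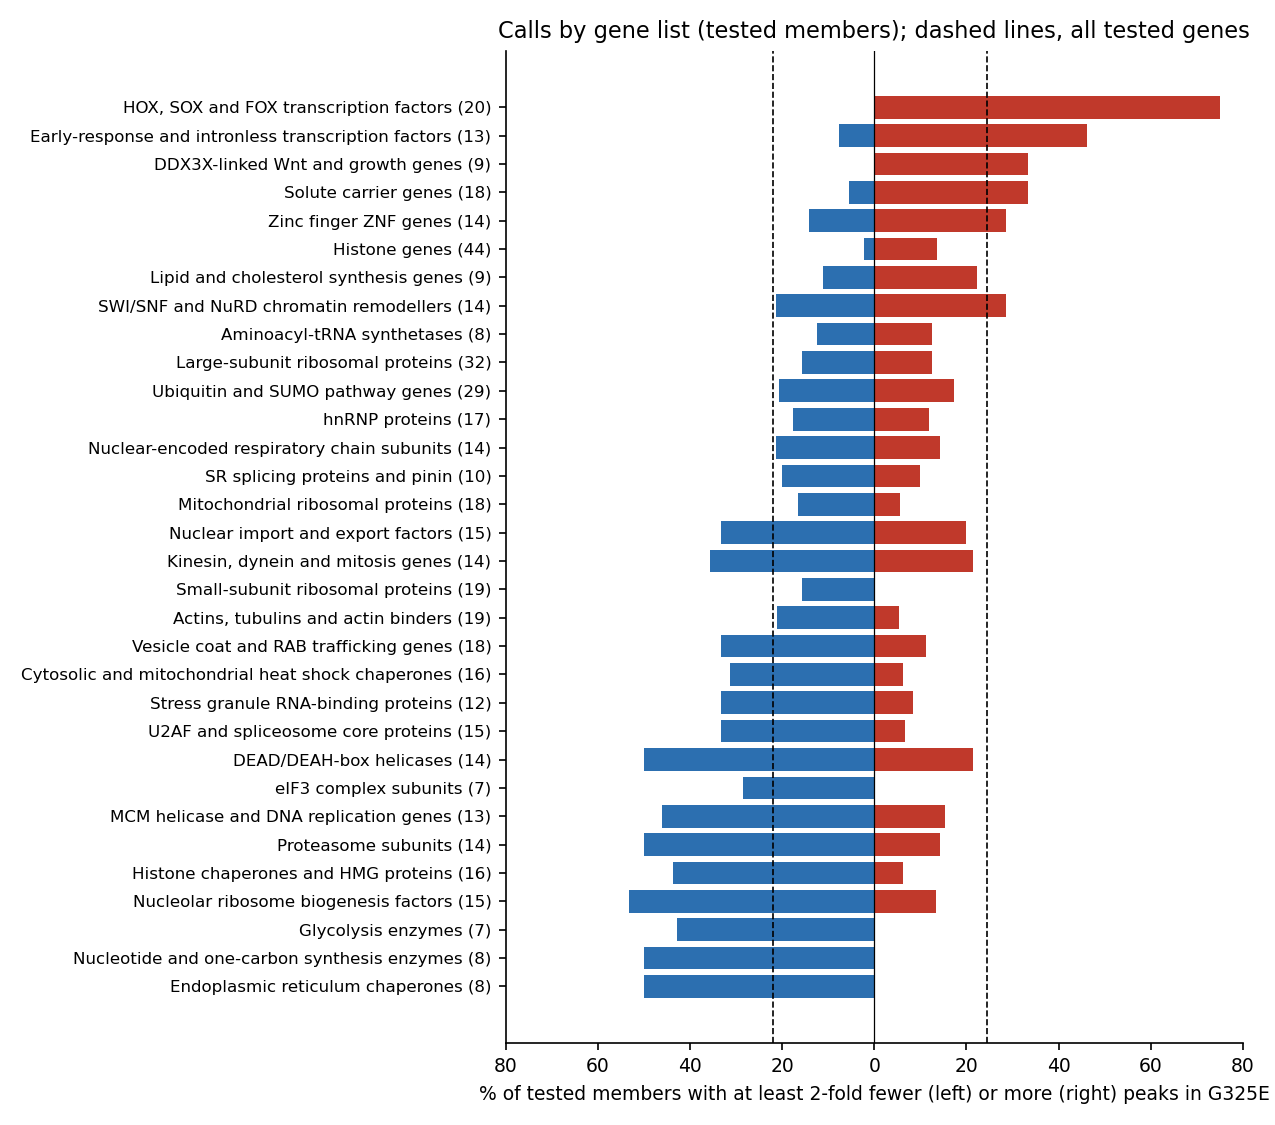
Percent of the tested members of each gene list past 2-fold on the higher (red, to the right) or lower (blue, to the left) side in G325E against wild-type DDX3X, for lists with at least 7 tested members, whose number is in parentheses. Dashed lines mark all tested genes, at 24.5% and 22.1%, and the HOX, SOX and FOX bar reaches past the line on the right by the widest margin of the lists drawn.

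The regions of the gene that held the peaks were set beside the calls. On genes with more peaks, 48.9% of the 4601 G325E peaks (95% Wilson interval 47.4 to 50.3) lay in the promoter-TSS or 5' UTR classes and 28.9% in exons. On genes with fewer peaks, 15.3% of the 5027 wild-type peaks (14.3 to 16.3) lay there and 64.8% in exons. These gene groups differed in the vector list too, where the same start classes held 38.7% of the peaks on genes with more and 17.1% on genes with fewer. The start classes held 36.9% of wild-type and 48.9% of G325E peaks on genes with more peaks, 31.5% and 37.5% on genes with similar numbers, and 15.3% and 32.6% on genes with fewer, and in all 3 groups the 2 intervals did not overlap. On genes with more peaks the promoter-TSS class held 29.0% of wild-type (26.4 to 31.7) and 39.9% of G325E peaks (38.5 to 41.3). The 5' UTR class alone held 7.86% (6.44 to 9.56) and 9.02% (8.23 to 9.88) there, with overlapping intervals. On genes with similar or fewer peaks the 5' UTR intervals did not overlap. The groups were formed from the same peak numbers, so the shares are a description of them. Of 1960 start-class G325E peaks on genes with more peaks compared by strand, 33.5% lay opposite to the canonical transcript. This share ran from 27.5% to 35.4% over all lists and gene groups, so not all start-class peaks were footprints on that gene's leader. The 3' UTR and TTS classes each held fewer peaks than introns in every group, with introns at 16.0% of the G325E peaks on genes with more and 10.7% of the wild-type peaks on genes with fewer.

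**Figure D4:**
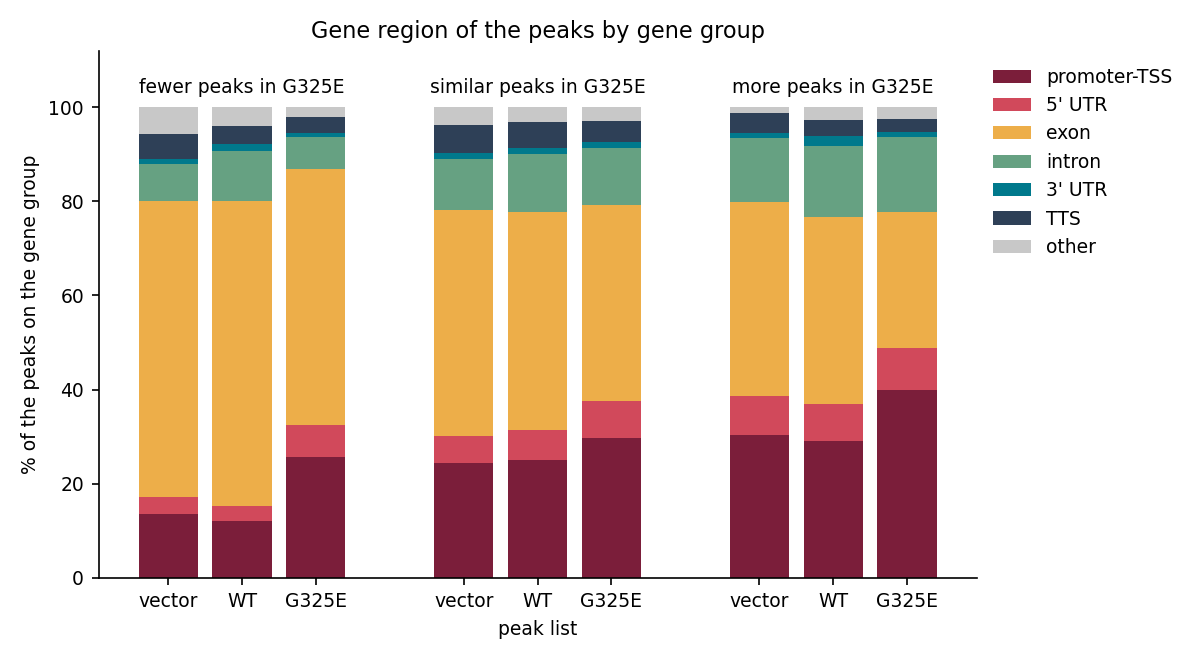
Percent of peaks in each annotated gene region (y axis) for the vector, wild-type DDX3X and G325E lists, on genes with fewer, similar and more peaks in G325E. The 2 red bands, promoter-TSS and 5' UTR, are widest on genes with more peaks and, in each gene group, wider in the G325E list than in the other 2 lists.

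Positions inside the coding part were compared too. Of the G325E exon peaks on genes with more peaks whose transcripts have several exons, 55.0% (52.1 to 57.9) were in the first exon, against 35.5% (30.97 to 40.2) of the wild-type exon peaks on those genes. On genes with fewer peaks, first exons held 5.03% of wild-type and 10.8% of G325E exon peaks, and internal exons 80.1% and 80.3%. The canonical coding sequence was cut into 3 equal parts, and shares are of the peaks with their midpoint inside it. On genes with more peaks, 57.6% of 1354 such G325E peaks were in the first part, against 44.2% of 446 such wild-type peaks. On genes with similar peak numbers, where neither list led, the first part held 35.8% of wild-type (34.3 to 37.3) and 45.6% of G325E peaks (43.8 to 47.3). The vector list had 37.6% there. On genes with fewer peaks the wild-type list had 28.2%, 35.5% and 36.3% from the first part to the last.

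Peaks on the compared genes were only partly in the same places. Of the G325E peaks on these genes 49.8% (49.0 to 50.7) overlapped a wild-type peak on the same strand by at least 1 base, and 39.7% of the wild-type peaks (38.96 to 40.5) overlapped a G325E peak. On genes with similar numbers these shares were 66.6% and 53.8%. G325E peaks with no wild-type peak in place had a median GC of 80.6% over 31 nt, against 67.7% for those in place, and wild-type peaks with no G325E peak in place had 61.3% against 67.7%. The peaks found in place in G325E alone were thus the GC-richest of these sets and those in wild-type alone the least. Over all peaks, median GC was 64.5% in both the vector and the wild-type lists and 74.2% in the G325E list.

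Base composition also moved with the calls gene by gene. The coding sequence had a median GC of 58.2% on genes with more peaks, 56.2% on genes with similar numbers and 54.5% on genes with fewer, over the 84.1% of tested genes with a coding sequence to hand. Genes were cut by coding GC into 4 equal sets of 377. In the set with the highest GC, from 61.9% upwards, 34.7% had more and 13.0% had fewer peaks in G325E. In the set with the lowest, up to 48.9%, 22.5% had more and 26.5% fewer. Both middle sets lay close to the lowest one. Even within the peaks of genes with similar numbers, the G325E list had a median peak GC of 71.0% against 64.5% in the wild-type list. Whether the difference in GC content came from the cells or from the making of 1 library cannot be told apart.

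**Figure D5:**
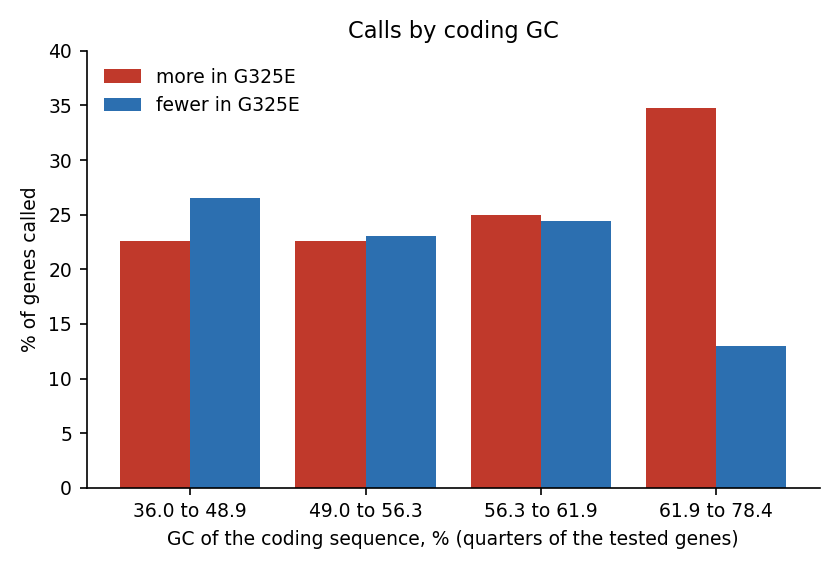
Percent of genes (y axis) past 2-fold on the higher (red) or lower (blue) side in G325E against wild-type DDX3X, by coding GC (x axis, range in percent), with 377 genes in each of 4 sets. The set with the highest GC has 34.7% with more and 13.0% with fewer.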

How the data were processed

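The deposited values were peak positions (start, end, strand and annotation of each peak), 1 list per library. Per the study's methods and the labels, the authors trimmed reads with cutadapt, aligned them with BWA (version 0.5.5) to hg19 and RefSeq transcripts, removed duplicates, called peaks on coverage with a caller written for CLIP-seq, merged and reviewed them by hand, and annotated them with HOMER. The lists give no peak heights or read numbers, so only peak numbers were compared. The study reports read totals per library (fewest mapped non-duplicate reads for G325E, most for wild-type), which were not used here. The duplicate removal and the coverage minimum limit how far peak number follows ribosome number.

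Here peaks were counted per host gene (Python 3.11.15, pandas 2.3.3) and expressed per 10000 list peaks. RefSeq identifiers that the lists do not pair with a name left 13.7% of wild-type and 7.23% of G325E peaks under a name that differs from that in the RefSeq gene table (GRCh38.p14, names only), and such genes are pointed out. Genes with at least 8 peaks in both lists together were called at a fold of 2, with a floor of 3 peaks per library for a count of 0, which makes the fold a bound. Rows naming no gene, nearly all on the mitochondrial genome, numbered 79 and 36 and stayed in the totals. Intervals are 95% Wilson for shares and exact (Clopper-Pearson) for folds and levels. Coding positions and GC came from canonical GENCODE transcripts on GRCh37, whose chromosome names and lengths fitted the peaks. The calling step was run on simulated peak numbers, and the share of unchanged genes that it called is not given here.

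Named genes were DDX3X, 5 genes whose proteins the study assayed, and the 15 called genes in each direction with the largest difference in level. In each list they were the 4 members with most peaks plus all called members of a direction with at most 5 calls. Further list members (FOXE1, FOXF2, HOXD13, SOX4, BOP1, PES1, HMGB1, NASP, DDX23, DDX24, DDX27, DDX39A and DHX8) were named after their values were seen. Some genes that the rule selects are not reported here. The members and gene lists were chosen with earlier results of these data known. No p-values were computed because each group had 1 library.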

Additional observations from a re-analysis of the deposited data

How the results depend on the processing

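The counts of 440 genes with more and 397 with fewer peaks stayed within 1.5 times under most settings. They changed to 222 with fewer when scaled to exon, 5' UTR and 3' UTR peaks, and scaling by the median gene ratio gave 365 and 478. A minimum of 20 peaks gave 41 and 62, no minimum gave 698 with more, a fold of 3 gave 281 and 139, peaks of 20 bp or more gave 258 with fewer, and exon peaks alone gave 180 and 108. Fewer genes could pass under the stricter settings by construction. Added after seeing the data, counting absent wild-type peak numbers at the unchanged wild-type total gave 292 with more. Genes with a peak in both lists, also added then, gave 272 and 154. The share of start classes on genes with more peaks (48.9% of G325E peaks) and with fewer (15.3% of wild-type peaks) was 46.2% and 13.8% for peaks of 20 bp or more, 45.7% and 13.95% with rows within 10 bp merged, 55.9% and 17.4% without intergenic, intron and repeat peaks, and 14.2% on genes with fewer when hosts came from the RefSeq gene table (added after seeing the data). Peaks in the same place made up 38.8% of wild-type and 48.7% of G325E peaks at an overlap of at least 0.5 of the shorter peak, 33.8% and 39.9% by midpoints within 15 bp, and 42.3% and 51.1% for peaks of 20 bp or more. Folds under each setting were followed only for DDX3X, the assayed genes and the leading genes in each direction. Of these folds, 435 stayed within the counting interval and 33 moved beyond it. Among the called genes of this set TCEB2 alone changed sign, to 0.18 on the log2 scale, with the RefSeq gene table. Uncalled genes near no change (SET, GNB2L1, HELLS) changed sign under some settings. No replicate could be left out, and no paired analysis was possible because each group had 1 library.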

Other observations

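A share of the peaks lay on the strand opposite to the canonical transcript of their host gene. On genes with more peaks in G325E this was 28.8% of G325E peaks (95% Wilson interval 27.5 to 30.2) and 23.7% of wild-type DDX3X peaks (21.2 to 26.5). On genes with fewer peaks it was 16.0% of G325E (13.2 to 19.3) and 11.3% of wild-type peaks (10.4 to 12.3). Within the promoter-TSS and 5' UTR classes the share ran from 27.5% to 35.4% over the 3 lists and 3 gene groups.

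On genes with more peaks, 41.4% of the G325E peaks lay upstream of the nearest annotated start site by up to 1 kb, as the lists' distances give it, against 36.5% of the wild-type peaks on the same genes. On genes with fewer peaks the wild-type share was 12.4%. A further 41.2% of the G325E peaks on genes with more peaks lay within 1 kb downstream, and 10.1% lay farther downstream, whereas 35.3% of the wild-type peaks on genes with fewer peaks lay 1 kb or more downstream.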
